A study of Mus musculus with 12 samples.

Results

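The naive pluripotency transcription factors analysed here are 10 genes, Klf2, Klf4, Klf5, Esrrb, Tfcp2l1, Nr0b1, Nr5a2, Prdm14, Tbx3 and Zfp42. They were chosen by name for their role. This choice, and that of all gene lists used here, was made with earlier results of these data known. Each of the 10 was matched to a single gene identifier among the 52636 genes counted. All 10 passed the filter on low counts in every comparison, but within EBs Nr0b1 and Prdm14 passed it only through KD EBs. RNA sequencing covered 4 groups of 3 libraries each, 12 in all, from the E14 line of mouse embryonic stem cells (ESCs). The groups were day 6 embryoid bodies (EBs, aggregates in which ESCs differentiate) of knockdown (KD) cells, EBs of the same age from wild-type (WT) cells, undifferentiated KD ESCs and undifferentiated WT ESCs. KD cells carried an shRNA against circKat6b-e2, a circular RNA. The labels leave unstated if a control shRNA was given to WT cells and if the KD line is 1 clone or a pool, so a KD minus WT value holds every difference between these populations. The circular RNA itself has no row in a table of gene counts, and the strength of the knockdown was not checked here. Per the labels, ESCs of all groups were grown on gelatin with LIF and inhibitors of MEK (PD0325901) and GSK3 (CHIR99021).

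These factors form the naive network, the set of regulators that marks mouse ESCs before they commit to lineages. LIF acts through STAT3 on genes such as Klf4 and Tfcp2l1, GSK3 inhibition relieves repression of Esrrb, Klf2 and Tfcp2l1 by TCF7L1, and MEK inhibition removes a signal for exit. When these inputs end, the network is shut down as cells enter the formative state, and several members return later in particular tissues or in germ cells. The question put to the data was how much of the fall seen between WT ESCs and WT EBs was kept in KD cells.

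Total counts ranged from 25377626 to 37770596 per library. Stage dominated the variation, with 83.0% of the variance on the first principal component of all libraries. WT ESC replicate 2 stood apart from the other ESC libraries (first component of the ESC libraries at −90.2, against −6.15 to 36.0), and the tests of the members and the gene list counts that use WT ESCs are given with and without it. Undifferentiated stem cell markers (Pou5f1, Sox2, Nanog, Utf1, Dppa5a and Tdh) summed to 376 to 418 CPM in KD EBs and 190 to 197 CPM in WT EBs, against 7724 to 8343 CPM in KD ESCs and 7951 to 10462 CPM in WT ESCs. The stage labels and these markers matched. CPM are read counts scaled to a common normalised library size. Replicate numbers came from the labels, the series calls the replicates biological, and p-values measure the spread between these libraries.

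RefSeq promoter windows of 300 bases (250 before and 50 after the start site, build GRCm38.p6) matched 7 of the 10 genes, Klf2, Klf4, Esrrb, Tfcp2l1, Nr0b1, Nr5a2 and Zfp42, in 9 windows. They were searched on both strands for 6 motifs of the network's own factors and inputs, since the members moved together. The following 4 windows are shown because they hold most of the matches, which stand in capitals; the sequences run 5′ to 3′ on the gene's strand.
Zfp42, chr8:43306960-43307259, minus strand: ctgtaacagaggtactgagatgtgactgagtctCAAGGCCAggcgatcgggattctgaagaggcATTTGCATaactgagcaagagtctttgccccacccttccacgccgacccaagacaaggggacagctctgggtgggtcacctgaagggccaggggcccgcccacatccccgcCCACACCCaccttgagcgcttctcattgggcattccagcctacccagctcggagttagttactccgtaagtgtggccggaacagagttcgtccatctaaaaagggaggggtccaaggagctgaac
Tfcp2l1, chr1:118627695-118627994, plus strand: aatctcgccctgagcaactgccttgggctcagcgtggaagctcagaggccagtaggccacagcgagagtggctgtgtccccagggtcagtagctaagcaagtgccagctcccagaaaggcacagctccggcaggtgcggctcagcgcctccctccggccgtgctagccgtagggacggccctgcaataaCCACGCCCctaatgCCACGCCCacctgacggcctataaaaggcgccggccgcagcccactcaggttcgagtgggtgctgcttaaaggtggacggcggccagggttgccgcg
Esrrb, chr12:86360867-86361166, plus strand: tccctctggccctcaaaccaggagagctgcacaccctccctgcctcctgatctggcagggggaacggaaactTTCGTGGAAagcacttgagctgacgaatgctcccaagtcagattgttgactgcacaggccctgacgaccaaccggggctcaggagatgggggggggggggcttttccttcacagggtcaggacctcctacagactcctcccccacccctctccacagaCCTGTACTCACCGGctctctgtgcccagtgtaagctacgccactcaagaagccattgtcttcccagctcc
Nr0b1, chrX:86191525-86191824, plus strand: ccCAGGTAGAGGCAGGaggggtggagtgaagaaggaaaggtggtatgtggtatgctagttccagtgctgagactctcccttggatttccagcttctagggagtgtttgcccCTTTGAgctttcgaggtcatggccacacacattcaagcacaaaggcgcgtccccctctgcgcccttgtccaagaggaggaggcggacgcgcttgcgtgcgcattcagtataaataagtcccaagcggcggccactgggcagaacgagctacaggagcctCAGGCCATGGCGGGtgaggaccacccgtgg
The Zfp42 window held matches to 3 motifs, CAAGGCCA for the ESRRB and NR5A2 pattern CAAGGNCA, ATTTGCAT for the octamer ATGCNAAT on the reverse strand, and CCACACCC for the KLF pattern GGGNGTGG on the reverse strand. In the Tfcp2l1 window the KLF pattern occurred at 2 places as CCACGCCC, 61 and 47 bases before the start site. The Esrrb window held TTCGTGGAA, a reverse-strand match to the STAT pattern TTCCNNGAA, 178 bases before the start, and CCTGTACTCACCGG for the TFCP2L1 pattern, a repeat with a spacer. In the Nr0b1 window there were 2 matches to the TFCP2L1 pattern and CTTTGA, a reverse-strand match to the TCF pattern TCAAAG. Among all 32851 windows, the KLF pattern was in 17.6%, the ESRRB and NR5A2 pattern in 6.71%, the TFCP2L1 pattern in 29.5%, the octamer in 3.15%, the STAT pattern in 4.81% and the TCF pattern in 16.0%. Of the 9 member windows these were in 3, 1, 4, 1, 1 and 1. TFCP2L1 matches in the Klf2 window overlapped each other. These letters describe the windows only.

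All 10 genes were lower in EBs than in ESCs, in KD cells and in WT cells alike, and 9 of them fell less in KD cells. The log2 change from ESCs to EBs had a median of −3.73 over the 10 genes in KD cells and −5.40 in WT cells, beside medians over all tested genes of 0.15 and 0.17. Of the 18975 genes tested, 37.3% were called lower in KD EBs than in KD ESCs and 37.3% in WT EBs than in WT ESCs, and 79.8% were called in either direction in each of these comparisons (edgeR quasi-likelihood test, Benjamini-Hochberg adjusted p under 0.05). The difference of the changes, KD minus WT, was called higher for 9 of the 10 genes, where 12.8% of all tested genes were called higher, and its median was 1.74 against 0.03. Expressed as the KD log2 change in percent of the WT log2 change, the part of the fall kept in KD cells had a median of 62.7% and ran from 43.7% (SE 3.10) for Nr0b1 to 81.8% (SE 1.73) for Tfcp2l1. Among the 5194 genes lower by at least 1 log2 unit in WT EBs, the median of that share was 88.0% (quartiles 68.2% and 108%), and 20.4% were called higher in the difference. With library size as the only scaling, genes called higher made up 61.9% of those called in the KD change, 65.2% in the WT change and 35.3% in the difference, against 53.2%, 53.3% and 55.6% with the scaling used here. The background of falling genes was picked on the same WT values and is a description only. In bulk samples, fewer cells that express a gene and less of its RNA per cell cannot be told apart.

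**Figure D1:**
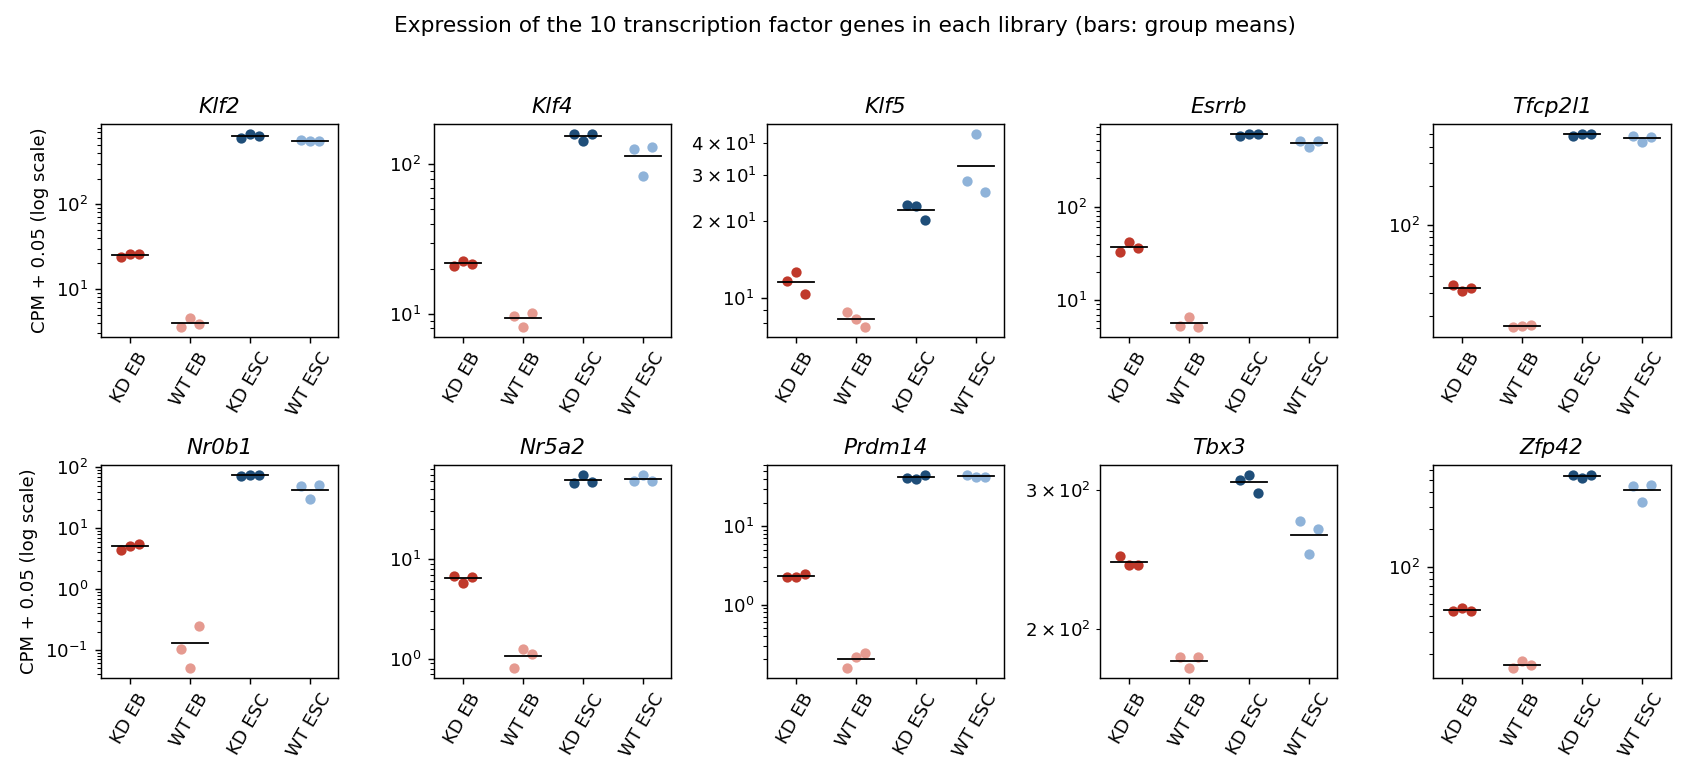
CPM + 0.05 on a log axis for each of the 10 genes in each library (points) with group means (bars), for KD EBs, WT EBs, KD ESCs and WT ESCs, 3 libraries each. In every panel the KD EB libraries lie above the WT EB libraries, and both lie below the ESC libraries.

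The Krüppel-like factors Klf2, Klf4 and Klf5 are zinc-finger proteins that can replace each other in mouse ESC self-renewal. Klf2 lies on chromosome 8 (72319033 to 72321656, plus strand, GRCm38, as all gene coordinates here). It stood at 24.1, 25.7 and 25.6 CPM in KD EBs, against 3.52, 4.50 and 3.84 CPM in WT EBs. The ESC libraries had 610, 679 and 642 CPM in KD cells and 567, 560 and 559 CPM in WT cells. KD EBs thus lay above WT EBs with no overlap, and each EB library was far below each ESC library. Klf2 changed by −4.68 (SE 0.07) on the log2 scale from KD ESCs to KD EBs and by −7.15 (SE 0.09) from WT ESCs to WT EBs. The difference of 2.47 (SE 0.10, edgeR adjusted p = 7.82e-10) was the third smallest p-value of all tested genes, and 65.4% of the WT change was kept.

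Klf4, a target of LIF and STAT3 and a reprogramming factor, lies on chromosome 4 (55527143 to 55532466, minus strand). It had 20.9, 22.7 and 21.7 CPM in KD EBs and 9.66, 8.12 and 10.1 CPM in WT EBs. In ESCs it had 161, 143 and 159 CPM in KD cells and 127, 83.5 and 132 CPM in WT cells. The groups did not overlap at either stage, and WT ESC replicate 2 was the lowest ESC library. With all libraries, edgeR called none of the 10 genes between the ESC groups, also where these are said here or below to be apart. The share of all genes with ESC groups apart was not counted. The changes were −2.83 (SE 0.14) in KD and −3.62 (SE 0.15) in WT cells, so that 78.2% was kept (difference 0.79, SE 0.20, edgeR adjusted p = 0.0105). With library size as the only scaling, the Klf4 difference was 0.64 and was not called (edgeR adjusted p = 0.0766), while the median of all genes stood at −0.13.

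Klf5, also a factor of trophoblast and gut epithelium, lies on chromosome 14 (99298691 to 99313405, plus strand). It stood at 11.6, 12.6 and 10.3 CPM in KD EBs and 8.83, 8.28 and 7.68 CPM in WT EBs. Levels in ESCs were 23.0, 22.8 and 20.1 CPM in KD cells and 28.5, 43.5 and 25.7 CPM in WT cells. Among the members Klf5 alone was lower in each KD ESC library than in each WT ESC library, and WT ESC replicate 2 was the highest. Its changes were −0.93 (SE 0.17) in KD and −1.98 (SE 0.17) in WT cells, with 47.3% kept (difference 1.04, SE 0.23, edgeR adjusted p = 0.00471). Without WT ESC replicate 2 the share kept was 57.0% and the difference 0.75 (edgeR adjusted p = 0.00243).

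Markers of other cells that can express these factors also differed between the EB groups. Endothelial cells can express Klf2 and Klf4. The 8 endothelial markers, of which 6 were called higher and 2 lower in KD EBs, summed to 126 to 134 CPM in KD EBs and 86.3 to 91.5 CPM in WT EBs. In ESCs, which express some of these markers, they summed to 145 to 146 CPM in KD and 148 to 180 CPM in WT cells. Pecam1 averaged 96.1 CPM in KD ESCs and 96.9 CPM in WT ESCs, and Egfl7 46.5 and 58.9 CPM. Emcn was at 0 in each WT EB library, entered this comparison only through KD EBs and could be called only higher. How many other markers here and below did so was not counted. Cdh5, which encodes VE-cadherin, averaged 5.62 ± 0.549 CPM in KD EBs and 0.312 ± 0.132 CPM in WT EBs (SD, n = 3). The 2 markers called lower were Pecam1, with 14.1 ± 2.33 CPM in KD EBs and 30.2 ± 2.19 CPM in WT EBs, and Egfl7, with 17.2 ± 2.22 CPM in KD EBs and 21.4 ± 1.17 CPM in WT EBs (SD, n = 3). The 9 markers of surface epithelium and gut, of which 7 were tested with 2 called higher and 5 lower, summed to 1913 to 2044 CPM in KD EBs and 2654 to 2771 CPM in WT EBs. Trophoblast can express Klf5, Esrrb and Zfp42, and its 8 markers, of which 7 were tested with 3 called higher and 4 lower, summed to 658 to 675 CPM in KD EBs and 868 to 878 CPM in WT EBs. Of the trophoblast markers, Hand1 alone averaged 509 CPM in KD EBs and 770 CPM in WT EBs, most of the sum in both. Gata3, Tfap2c and Ascl2 were also lower in KD EBs. Cdx2 (57.1 CPM in KD EBs and 27.2 CPM in WT EBs), Eomes (31.4 and 15.9 CPM) and Plac1 (30.8 and 5.31 CPM) were higher. No epithelial or trophoblast marker was at 0 in either EB group. Of all genes tested within EBs, 28.0% were called higher and 27.7% lower, which applies to each marker list here and below. Such marker sums do not give the amounts of these cells, and the part of these cells in the values of the members was not tested.

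The nuclear receptors of the network are Esrrb, an orphan receptor downstream of GSK3 inhibition, Nr5a2, which can act upstream of Pou5f1, and Nr0b1, which lacks the usual DNA-binding domain. Esrrb lies on chromosome 12 (86361117 to 86521628, plus strand). Its levels were 32.3, 41.7 and 36.1 CPM in KD EBs, against 5.26, 6.53 and 5.12 CPM in WT EBs. KD ESCs had 572, 601 and 596 CPM, and WT ESCs had 506, 431 and 497 CPM. The KD libraries were thus above all WT libraries at each stage, though the ESC difference was not called (edgeR adjusted p = 0.0936). Esrrb changed by −4.01 (SE 0.10) in KD and −6.41 (SE 0.12) in WT cells, with 62.5% kept (difference 2.40, SE 0.14, edgeR adjusted p = 3.58e-08).

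Nr5a2 lies on chromosome 1 (136842571 to 136960448, minus strand). KD EBs had 6.78, 5.77 and 6.59 CPM and WT EBs had 0.755, 1.21 and 1.06 CPM, while ESC libraries ran from 57.9 to 69.2 CPM in KD and from 60.7 to 69.8 CPM in WT cells. The ESC groups overlapped and the EB groups did not. The change was −3.29 (SE 0.12) in KD and −5.98 (SE 0.15) in WT cells, with 55.0% kept (difference 2.69, SE 0.19, edgeR adjusted p = 2.05e-07). Extraembryonic endoderm can express Nr5a2, Tbx3 and Klf5. Its 10 markers summed to 825 to 849 CPM in KD EBs and 522 to 535 CPM in WT EBs, with 5 called higher, 3 lower and none at 0, and their part in these results was not tested.

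Nr0b1 on the X chromosome (86191764 to 86195947, plus strand) had the deepest fall in WT cells. It had 158, 179 and 206 counts in KD EBs, which are 4.25, 5.13 and 5.49 CPM, and 2, 0 and 8 counts in WT EBs, which are 0.0521, 0 and 0.193 CPM. A count of 0 in WT EB replicate 2 allows up to 0.0809 CPM, from counting error alone and with counts taken as independent. The limit is too low if they are not. ESC libraries had 71.6, 75.1 and 74.7 CPM in KD and 48.8, 29.7 and 50.4 CPM in WT cells. Every KD library was above every WT library of its stage, and WT ESC replicate 2 was lowest among ESCs. The fitted changes were −3.89 (SE 0.22) in KD and −8.91 (SE 0.37) in WT cells, with 43.7% kept (difference 5.02, SE 0.51, edgeR adjusted p = 1.34e-05). The WT value rests on 10 counts in all, and leaving out WT EB replicate 3 moved it to −10.45 and the difference to 6.56. Across the libraries 61.7% to 68.7% of nonzero counts up to 10 were even, against 48.0% to 51.6% in a higher range of counts. The Nr0b1 counts in WT EBs were all even. Such small counts may stand for fewer independent reads, and the cause of the even counts was not tested.

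Prdm14, a PR-domain zinc-finger protein that restrains FGF signalling and Dnmt3b in ESCs and acts in primordial germ cells, was the other gene with hardly any WT EB counts. It lies on chromosome 1 (13113457 to 13127163, minus strand). KD EBs had 82, 77 and 90 counts, or 2.21, 2.21 and 2.40 CPM, and WT EBs had 4, 6 and 8 counts, or 0.104, 0.162 and 0.193 CPM. In ESCs it stood at 41.0, 40.4 and 45.3 CPM in KD and 44.9, 42.8 and 42.5 CPM in WT cells. The EB groups were far apart and the ESC groups overlapped. The Prdm14 counts in WT EBs were also all even, so they too may stand for fewer independent reads. The changes were −4.21 (SE 0.12) in KD and −8.10 (SE 0.16) in WT cells, with 52.0% kept (difference 3.89, SE 0.23, edgeR adjusted p = 2.56e-08). Germ cell markers, a list of 8 with 4 called higher and 2 lower in KD EBs, summed to 144 to 151 CPM in KD EBs and 151 to 156 CPM in WT EBs with none at 0. The 2 called lower were Tfap2c, with 28.8 ± 2.53 CPM in KD EBs and 37.7 ± 0.928 CPM in WT EBs, and Kit, with 92.7 ± 3.15 CPM in KD EBs and 99.0 ± 2.85 CPM in WT EBs (SD, n = 3). Among those called higher, Nanos3 averaged 0.960 ± 0.460 CPM in KD EBs and 0.0743 ± 0.0864 CPM in WT EBs (SD, n = 3). It had at most 7 counts in a WT EB library, under the minimum of the filter, so it could be called only higher. Nanos3 averaged 2.98 CPM in KD ESCs and 4.78 CPM in WT ESCs, where the marker sums were 135 to 140 CPM and 134 to 148 CPM. The part of germ cells in the Prdm14 values was not tested.

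Tfcp2l1 and Zfp42 kept most of the WT fall together with Klf4. Tfcp2l1, a CP2-family factor that joins LIF and GSK3 inputs, lies on chromosome 1 (118627945 to 118685168, plus strand). It had 34.2, 30.6 and 32.6 CPM in KD EBs and 16.2, 16.4 and 16.8 CPM in WT EBs, against 486, 505 and 505 CPM in KD ESCs and 486, 434 and 479 CPM in WT ESCs. The EB groups were far apart, and the KD ESC libraries were above the WT ESC libraries by less than 1 CPM at the closest pair. The changes were −3.94 (SE 0.06) in KD and −4.82 (SE 0.07) in WT cells, with 81.8% kept (difference 0.88, SE 0.08, edgeR adjusted p = 2.52e-06). This was the highest share among the members.

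Zfp42, also called Rex1 and a classical marker of the naive state, lies on chromosome 8 (43295063 to 43306980, minus strand). KD EBs had 44.4, 46.9 and 44.4 CPM and WT EBs 15.3, 17.4 and 16.3 CPM. KD ESCs had 541, 517 and 546 CPM, and WT ESCs 445, 332 and 451 CPM. KD libraries were above WT libraries at each stage, and WT ESC replicate 2 was again low. The changes were −3.56 (SE 0.10) in KD and −4.65 (SE 0.11) in WT cells, with 76.7% kept (difference 1.08, SE 0.13, edgeR adjusted p = 4.22e-05).

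Tbx3, a T-box factor also expressed in limb, heart and extraembryonic endoderm, was the member that changed least. It lies on chromosome 5 (119670669 to 119684724, plus strand). It had 247, 241 and 241 CPM in KD EBs, 184, 178 and 184 CPM in WT EBs, 309, 314 and 298 CPM in KD ESCs, and 274, 249 and 268 CPM in WT ESCs. KD libraries were above WT libraries at each stage. Its changes were −0.34 (SE 0.05) in KD and −0.53 (SE 0.05) in WT cells, and 62.9% was kept. The difference of 0.20 (SE 0.07, 95% confidence interval 0.05 to 0.35) missed the threshold (edgeR adjusted p = 0.0544) and passed without WT ESC replicate 2 (0.21, edgeR adjusted p = 0.00825) and with DESeq2 (0.23, adjusted p = 0.00192). The direction of the stage change depended on the scaling, since with library size alone it was 0.03 in KD cells and 0.00 in WT cells, where the medians of all genes were 0.52 and 0.70. Markers of lateral and cardiac mesoderm, which can express Tbx3, had 6 of 8 genes higher and 1 lower. They summed to 667 to 695 CPM in KD EBs and 410 to 428 CPM in WT EBs with none at 0, and their part was not tested. Tbx3 exons share 115 bases with the antisense gene Tbx3os1 (45 to 151 counts per library), and counting without strand does not separate them.

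**Figure D2:**
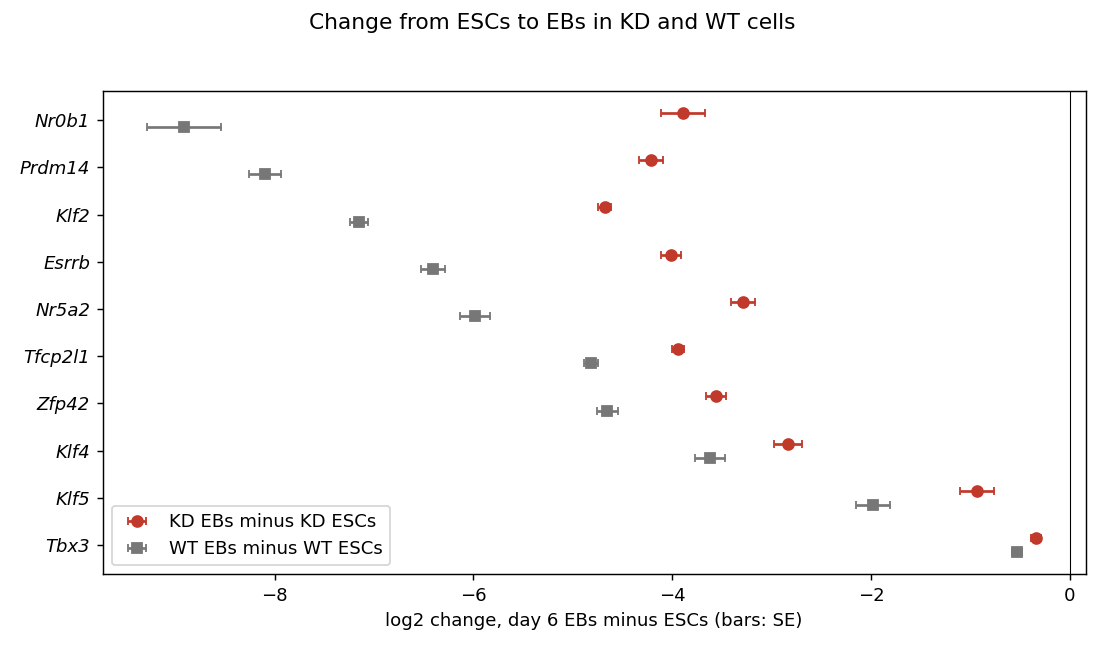
Log2 change from ESCs to day 6 EBs for each gene in KD cells (red circles) and WT cells (grey squares), with SE bars, from 1 fit of 12 libraries. The KD changes lie between −4.68 and −0.34, and the WT changes between −8.91 and −0.53.

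The EB level in percent of the mean ESC level of the same cells shows the same data without logarithms. Klf2 was at 3.74%, 3.99% and 3.98% in KD EBs, against 0.625%, 0.801% and 0.683% in WT EBs. For Esrrb the values were 5.48%, 7.07% and 6.12% in KD EBs and 1.10%, 1.37% and 1.07% in WT EBs. Prdm14 had 5.23%, 5.23% and 5.68% in KD EBs and 0.240%, 0.373% and 0.445% in WT EBs. As ratios to each other, the residual levels of these genes were farther apart in WT EBs than in KD EBs. In percentage points they were closer together in WT EBs. For 7 of the 10 genes (Klf2, Esrrb, Prdm14, Tfcp2l1, Nr0b1, Zfp42 and Nr5a2) the group mean was between 3.90% and 10.2% in KD EBs, and between 0.190% and 3.99% in WT EBs. Klf4 stood at 14.1% in KD EBs and 8.15% in WT EBs. Klf5 stood at 52.3% in KD EBs and 25.4% in WT EBs, and Tbx3 at 79.3% in KD EBs and 69.1% in WT EBs. In none of the 10 genes did KD and WT EB libraries overlap. The share of all genes without overlap was not counted, and 55.7% of tested genes were called between these groups.

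**Figure D3:**
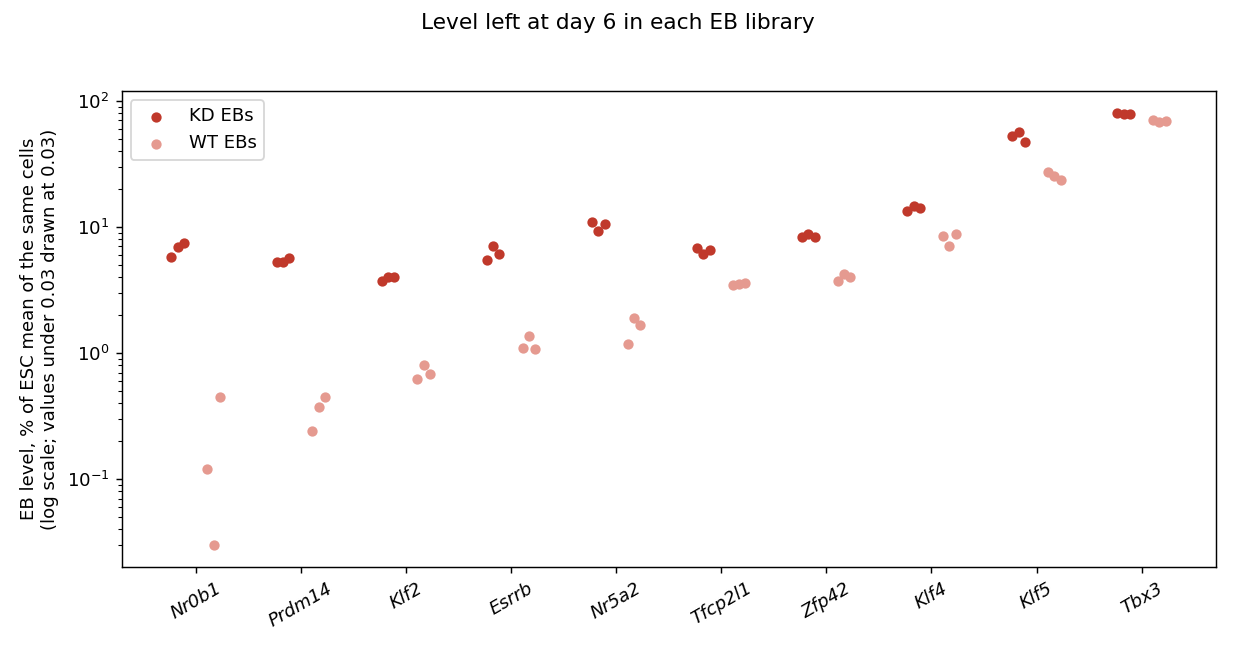
EB level of each gene in percent of the mean ESC level of the same cells, on a log axis, for the 3 KD EB libraries (dark) and the 3 WT EB libraries (light); values under 0.03% are drawn at 0.03%, which applies to 1 Nr0b1 library. Genes run from the deepest WT fall on the left to the shallowest on the right, and the dark points lie above the light points for each gene.

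Within day 6 EBs, KD against WT was called higher for 10 of the 10 genes, in a comparison where 28.0% of 17355 tested genes were called higher and 27.7% lower, 55.7% in all. The log2 differences were 5.75 (SE 0.42) for Nr0b1, 3.80 (SE 0.41) for Prdm14, 2.64 (SE 0.11) for Esrrb, 2.61 (SE 0.11) for Klf2 and 2.60 (SE 0.22) for Nr5a2. Smaller differences were found for Zfp42 (1.41, SE 0.07), Klf4 (1.17, SE 0.10), Tfcp2l1 (0.92, SE 0.08), Klf5 (0.42, SE 0.12) and Tbx3 (0.36, SE 0.03). All 10 had an edgeR adjusted p between 5.49e-19 and 0.00390. Nr0b1 and Prdm14 had at most 8 counts in a WT EB library, under the minimum of the filter. They entered this comparison only through KD EBs, so they could be called only higher. The median difference was 2.00, where that of all tested genes was 0. With any 1 EB library left out, 10 of 10 were still called, and the Nr0b1 difference was 7.31 without WT EB replicate 3.

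Within ESCs, 0 of the 10 genes were called over all genes by edgeR, where it called 0.603% of 16081 tested genes, 0.168% higher and 0.435% lower. An unadjusted p under 0.05 was found for 7 of the 10 genes and for 21.4% of all tested genes. DESeq2 called 3 of the 10 genes higher and 1 lower, where it called 2.83% of genes higher and 5.97% lower. The median difference was 0.22, with values from −0.56 (Klf5, 95% confidence interval −0.95 to −0.16, edgeR adjusted p = 0.129) to 0.79 (Nr0b1, 95% confidence interval 0.40 to 1.17, edgeR adjusted p = 0.0747). For Nr5a2 and Prdm14 it was −0.03 each, with intervals of −0.24 to 0.19 and −0.23 to 0.17. The count of members called in ESCs moved with the test and with the libraries used. Without WT ESC replicate 2, where 3.75% of all tested genes were called higher and 5.60% lower, 6 members were called higher, namely Nr0b1 (0.58), Klf4 (0.26), Zfp42 (0.26), Esrrb (0.24), Klf2 (0.20) and Tbx3 (0.19), with edgeR adjusted p from 6.90e-07 to 0.00434. Without WT ESC replicate 3, 1 member was called higher, and the share of all tested genes called higher was not counted.

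**Figure D4:**
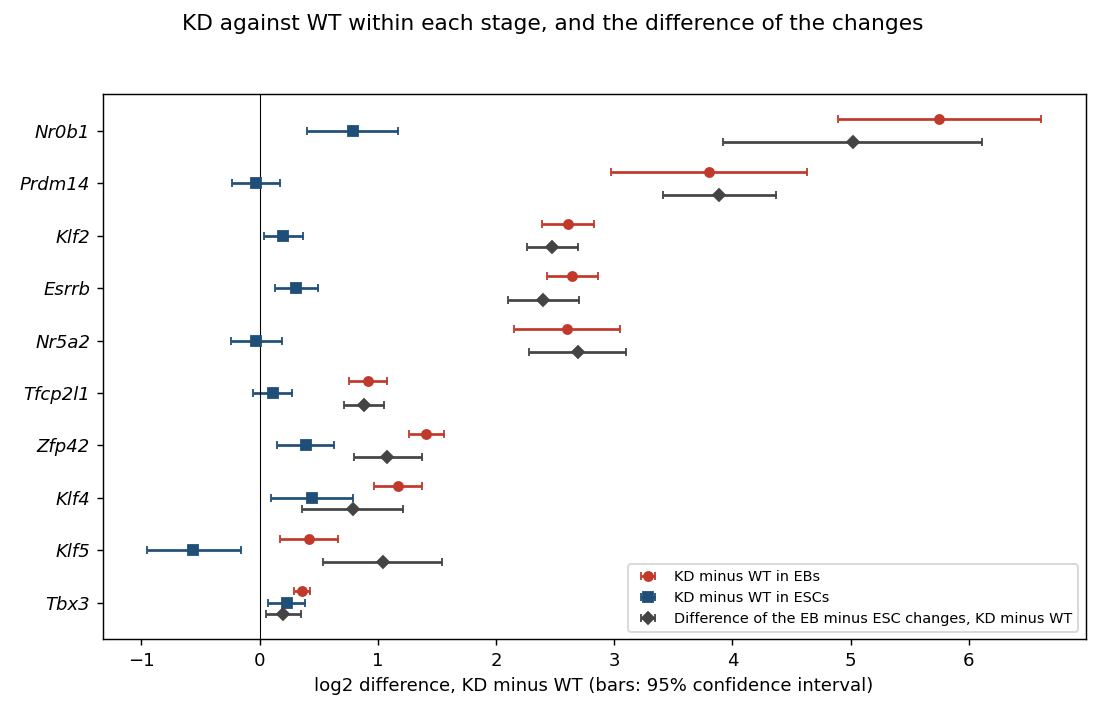
Log2 difference of KD minus WT for each gene in EBs (red circles), in ESCs (blue squares), and for the difference of the EB minus ESC changes (dark diamonds), with 95% confidence intervals. The EB values run from 0.36 to 5.75 and the ESC values from −0.56 to 0.79.

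Without WT ESC replicate 2 the fall of all 10 genes was called in both kinds of cell, with KD changes from −4.74 to −0.40 and WT changes from −9.15 to −0.60. The difference of the changes was called higher for 10 of 10 genes, where 14.2% of all tested genes were called higher and 13.7% lower, against 12.8% and 10.2% with that library. Its values were 5.19 for Nr0b1, 3.87 for Prdm14, 2.59 for Nr5a2, 2.45 for Klf2, 2.44 for Esrrb, 1.19 for Zfp42, 0.94 for Klf4, 0.90 for Tfcp2l1, 0.75 for Klf5 and 0.21 for Tbx3. Shares kept ran from 43.2% for Nr0b1 to 81.7% for Tfcp2l1, with a median of 64.0%, and the median over the 5243 genes lower by at least 1 log2 unit in WT EBs was 92.3%. EB levels in percent of the WT ESC mean were 7.19% for Klf4, 30.5% for Klf5 and 67.3% for Tbx3 in WT EBs, and between 0.165% and 3.65% for the other 7 genes.

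Levels between genes were compared as CPM per kilobase of exon. In KD EBs the order began with Tbx3 (36.7 ± 0.538), Zfp42 (24.1 ± 0.776) and Klf2 (13.6 ± 0.499 CPM per kilobase, SD, n = 3). Klf4, Klf5 and Esrrb overlapped as neighbours there, at 7.13 to 6.07 CPM per kilobase. In WT EBs Tbx3 and Zfp42 were also first and second (27.5 and 8.69 CPM per kilobase), while Klf2 stood at 2.14 CPM per kilobase, below Klf5 and Klf4, and Nr0b1 and Prdm14, which overlapped, were last. In KD ESCs, Klf2 (349 ± 18.6) and Zfp42 (284 ± 8.21) were highest, then Esrrb (97.5 ± 2.53), while Prdm14 (16.5 ± 1.03), Klf5 (12.8 ± 0.960) and Nr5a2 (10.6 ± 1.03) were lowest (CPM per kilobase, SD, n = 3). Tfcp2l1, Klf4 and Tbx3 followed each other with overlapping neighbours, from 52.9 to 46.3 CPM per kilobase.

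Core pluripotency factors were divided. Nanog, which holds ESCs in self-renewal, had 45.4 ± 1.56 CPM in KD EBs and 46.6 ± 2.96 CPM in WT EBs (SD, n = 3), a difference of −0.10 (95% confidence interval −0.22 to 0.03, edgeR adjusted p = 0.182). Pou5f1, which encodes OCT4, had 54.4 ± 3.36 CPM in KD EBs and 42.3 ± 3.98 CPM in WT EBs (log2 difference 0.30 with SE 0.06 and edgeR adjusted p = 1.55e-04). Sox2, its partner, had 77.1 ± 6.48 CPM in KD EBs and 38.7 ± 0.901 CPM in WT EBs (log2 difference 0.93 with SE 0.06 and edgeR adjusted p = 3.64e-15). Sox2 is also expressed in neural cells. For the difference of the changes, Nanog (0.02, SE 0.08, edgeR adjusted p = 0.901) and Pou5f1 (0.17, SE 0.12, edgeR adjusted p = 0.336) were not called, while Utf1 (1.34), Sox2 (0.75) and Zfp281 (0.68) were higher and Zfp143 (−0.53) lower. Of the 8 core factors tested, 3 were therefore higher and 1 lower (median 0.33, against 0.03 over all genes). Among all tested genes 12.8% were called higher and 10.2% lower. Without WT ESC replicate 2, 5 were called higher and 1 lower (median 0.22), and Pou5f1 was among those called (0.23, SE 0.08, edgeR adjusted p = 0.0482), while Nanog was not (0.00, SE 0.07).

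Set on the scale of the KD ESC mean, the KD minus WT difference in EBs was 3.20% for Tfcp2l1, 3.29% for Klf2, 5.02% for Prdm14, 5.26% for Esrrb, 5.41% for Zfp42 and 6.61% for Nr0b1. It was 8.07% for Klf4, 8.62% for Nr5a2, 14.7% for Klf5 and 19.9% for Tbx3. The same measure was −0.214% for Nanog, 1.01% for Pou5f1, 1.89% for Dppa5a, 5.73% for Tdh, 6.92% for Utf1 and 13.4% for Sox2. These percentages have no error attached, and they differed from gene to gene among the markers and among the 10 genes. The share of undifferentiated cells in the EBs was not tested.

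**Figure D5:**
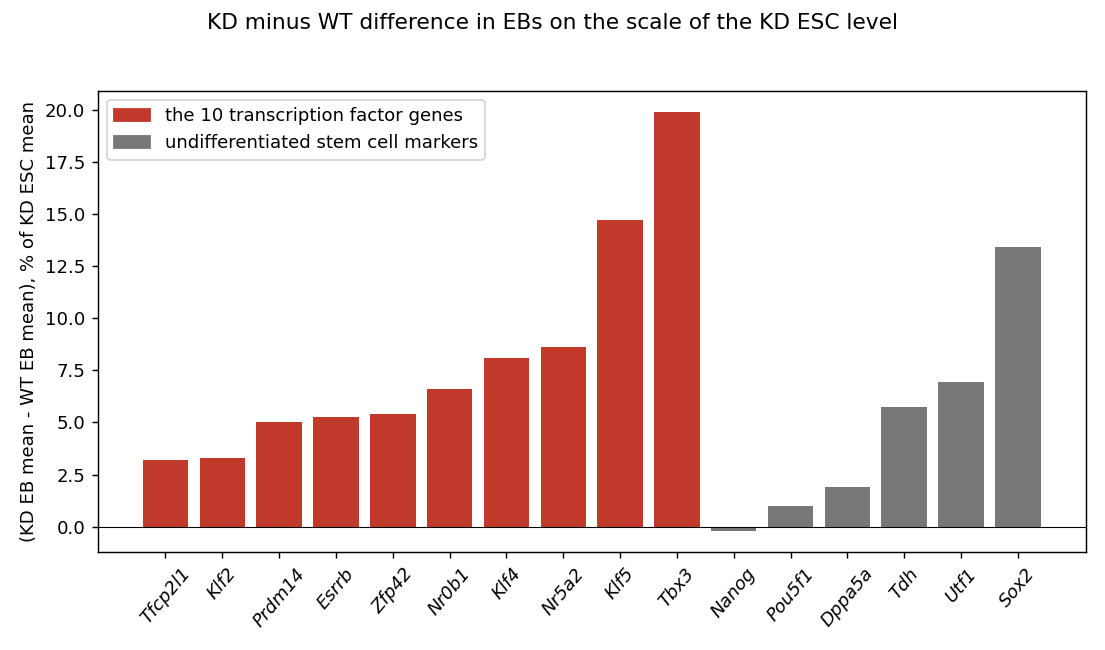
Mean CPM of KD EBs minus mean CPM of WT EBs in percent of the mean CPM of KD ESCs, for the 10 genes (red) and 6 markers of undifferentiated stem cells (grey). Bars start at 0; the 10 genes run from 3.20% to 19.9% and the markers from −0.214% to 13.4%.

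Other genes of the naive state gave more positive than negative differences. A list of 20 such genes, which includes Nanog, was drawn up with earlier results of these data known, as were the other lists. Of its 19 tested genes, 12 were higher and 2 lower in the difference of the changes (median 1.39). Over all tested genes, 12.8% were called higher and 10.2% lower. Without WT ESC replicate 2, 15 were higher and 2 lower, beside 14.2% and 13.7% of all tested genes. Tdh, the threonine dehydrogenase of mouse ESCs, differed by 4.03 (SE 0.13), with 39.3 ± 1.71 CPM in KD EBs and 2.73 ± 0.491 CPM in WT EBs (SD, n = 3). Dppa3 differed by 3.63 (SE 0.41), Dppa2 by 3.30 (SE 0.34) and Tcl1, a coactivator of AKT, by 2.45 (SE 0.30), all with edgeR adjusted p of 4.96e-05 or less. Pecam1 (−1.08, SE 0.14) and Alpl (−0.61, SE 0.08) were lower, and were chosen for naming after their values were seen. Pecam1 is also an endothelial marker.

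Formative and primed genes were split, with 5 of 14 higher and 5 lower in the difference of the changes (median −0.04), and 4 were higher and 5 lower without WT ESC replicate 2. These counts stand beside 12.8% of all tested genes called higher and 10.2% lower, or 14.2% and 13.7% without that library. Etv4, an ERK-responsive factor, differed by 1.69 (SE 0.14, edgeR adjusted p = 9.51e-07) and Foxd3 by 1.66 (SE 0.26, edgeR adjusted p = 2.71e-04). Pou3f1, which encodes OCT6, differed by −1.34 (SE 0.30, edgeR adjusted p = 0.00434), with 6.64 ± 0.460 CPM in KD EBs and 24.2 ± 0.697 CPM in WT EBs (SD, n = 3), and Grhl2 by −1.30 (SE 0.45, edgeR adjusted p = 0.0495).

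Most paralogues of the 10 genes were not called in the difference of the changes, where 23.0% of all tested genes were called, 12.8% higher and 10.2% lower. Of 28 tested in a list of 32, 4 were higher and 5 lower in the difference of the changes (median 0.03), and 6 of 29 were higher and 5 lower without WT ESC replicate 2. Klf10, a TGF-beta-induced gene, differed by −1.34 (SE 0.11, edgeR adjusted p = 5.68e-07), with 49.3 ± 4.44 CPM in KD EBs and 132 ± 3.87 CPM in WT EBs (SD, n = 3). Tbx4, a hindlimb and allantois factor, differed by 3.98 (SE 0.45, edgeR adjusted p = 2.04e-05), with 66.9 ± 0.306 CPM in KD EBs and 5.20 ± 0.780 CPM in WT EBs (SD, n = 3), while Grhl1 differed by 1.11 (SE 0.35, edgeR adjusted p = 0.0298).

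The genes most like the members' median profile over the 12 libraries, by root mean square distance of centred log2 CPM, were Zfp936 (0.185), D1Pas1 (0.205), Lrrc34 (0.210), Noxred1 (0.273) and Foxd3 (0.275). Among the members, Nr5a2 (0.250) and Zfp42 (0.301) were closest to that profile and Tbx3 (2.06) was farthest. Zfp936 had 4.30 ± 0.779 CPM in KD EBs, 1.08 ± 0.349 CPM in WT EBs, 52.3 ± 4.19 CPM in KD ESCs and 47.1 ± 2.35 CPM in WT ESCs (SD, n = 3). Zfp936 and D1Pas1 belong to families of similar genes, so their counts are uncertain.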

How the data were processed

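RNA was selected with poly-T. The tools in the submitters' processing notes are HISAT2 2.1.0, featureCounts 2.0.3 and DESeq2 1.18.1, with build mm10. The deposited values are raw counts per gene, and per the file headers the annotation was Ensembl release 90; no strand option is given there. The deposited exon lengths were used for CPM per kilobase. The 10 members and all gene lists were chosen with earlier results of these data known.

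Counts were tested with edgeR 4.0.16 (R 4.3.3), using TMM scaling, the filterByExpr filter (minimum count 10, minimum total 15), robust quasi-likelihood F-tests and Benjamini-Hochberg adjustment over all tested genes. Stage changes and their difference came from 1 fit of 12 libraries, and comparisons within a stage from the 6 libraries of that stage. The SE is the log2 change divided by the root of F. Alternatives were DESeq2 1.42.0, library size alone, no filter, a replicate block, all 12 libraries and leaving out each library. Besides the members, up to 4 called genes per list were named by size of the difference (mean log2 CPM of at least 1). The 5 genes most like the members (mean log2 CPM of at least 2) were also named. Cdh5, Emcn, Pecam1, Egfl7, Nanos3, Tfap2c, Kit, the trophoblast markers and the core factors not called were named after their values were seen. The procedure was tested on simulated data. Confidence intervals rest on the quasi-likelihood spread between libraries. Limits on 0 counts (3 counts per library) cover counting error only and take counts as independent. The gene lists, the falling genes and the percent levels without WT ESC replicate 2 were added after seeing the data.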

Additional observations from a re-analysis of the deposited data

Results flagged for a closer look

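For 9 of the 10 genes the change from ESCs to EBs differed between KD and WT cells by a test of the difference itself (edgeR quasi-likelihood test, adjusted over all genes). The log2 difference, KD minus WT, was 5.02 for Nr0b1, 3.89 for Prdm14, 2.69 for Nr5a2, 2.47 for Klf2, 2.40 for Esrrb, 1.08 for Zfp42, 1.04 for Klf5, 0.88 for Tfcp2l1 and 0.79 for Klf4. The Nr0b1 value rests on 10 counts in WT EBs, which may stand for fewer independent reads.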

How the results depend on the processing

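The falls in KD and WT cells and the higher level in KD EBs were called in 10 of 10 genes with each library left out. The difference of the changes was called in 9 to 10, and in 3389 to 5507 of all genes. With library size alone the falls were called in 9 of 10 in KD and in WT cells, all but Tbx3. There 5688 and 5272 of 18975 tested genes were called lower. The difference was then called in 8 of 10, not for Klf4 (edgeR adjusted p = 0.0766) and Tbx3 (edgeR adjusted p = 0.856). For it 1457 of all genes were called higher and 2676 lower. The median share kept was 61.5% with DESeq2, 61.9% with library size alone (9 genes), 61.7% with no filter and 62.8% with the replicate block, and 61.6% to 65.1% with a library left out. For KD against WT in ESCs the counts were unstable. Members called higher, 0 as reported, were 3 with DESeq2, 4 with no filter, 2 with the replicate block, 4 with all 12 libraries and 0 to 6 with a library left out. Members called lower, 0 as reported, were 1 with DESeq2, with no filter and with all 12 libraries. Genes called, 97 as reported, were 1030, 1769, 266 and 1999 under DESeq2, no filter, the replicate block and all 12 libraries, 36 with library size alone, and 8 to 1557 with a library left out. Of all tested genes, 0.168% were called higher and 0.435% lower as reported. These shares were 2.83% and 5.97% with DESeq2, and 3.75% and 5.60% without WT ESC replicate 2. For the other settings the shares by direction were not counted. With library size alone the sign turned for Tbx3 from KD ESCs to KD EBs (0.03) and for KD against WT in ESCs for Nr5a2 (0.09) and Prdm14 (0.08). Nr5a2 in ESCs ran from −0.11 to 0.04 with a library left out. The cause of these shifts was not tested. Same-numbered replicates did not deviate together (0 of 18 correlations over 0.1, from −0.03 to 0.04), so the replicate numbers are only names. Counts in WT EBs limit the values of Nr0b1 and Prdm14, which entered the comparison within EBs only through KD EBs.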

Other observations

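Signal inputs and cofactors of the naive network were divided. Of 18 tested, 2 were higher and 5 lower in the difference of the changes (median −0.21), and 3 were higher and 7 lower without WT ESC replicate 2. For all tested genes the shares were 12.8% higher and 10.2% lower, and 14.2% and 13.7% without that library. Socs3, a feedback inhibitor of LIF and STAT3 signalling, differed by −0.98 (SE 0.15, edgeR adjusted p = 2.73e-04), and Id1, a BMP target, by −0.58 (SE 0.11, edgeR adjusted p = 0.00188). Spry4, an inhibitor of ERK signalling, differed by 0.93 (SE 0.29, edgeR adjusted p = 0.0301), and Il6st, which encodes the gp130 receptor chain used by LIF, by 0.56 (SE 0.08, edgeR adjusted p = 1.31e-04).

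Of 12 genes tested on a list of repressors and related regulators of the network, 4 were higher and 1 lower in the difference of the changes (median 0.08). The counts were the same without WT ESC replicate 2. Over all tested genes 12.8% were called higher and 10.2% lower. Zfp281, called higher here, is also counted among the core factors above. Foxp1 differed by 1.11 (SE 0.15, edgeR adjusted p = 9.16e-05), Mbd3, a subunit of the NuRD complex, by 0.71 (SE 0.10, edgeR adjusted p = 1.26e-04) and Fnip1, a partner of folliculin, by 0.63 (SE 0.21, edgeR adjusted p = 0.0389). Markers of 2-cell-like cells summed to 1.81 to 2.19 CPM in KD EBs and 1.08 to 1.38 CPM in WT EBs, and to 1.96 to 2.95 CPM in KD ESCs and 15.8 to 20.2 CPM in WT ESCs.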
